A study of Mus musculus with 6 samples.

Results

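The genes described are secreted and membrane proteins that cut or protect the extracellular matrix: the matrix metalloproteinases Mmp10, Mmp2 and Mmp14, their tissue inhibitors Timp1, Timp2 and Timp3, and the plasminogen activators Plau and Plat with the receptor Plaur. They were picked by name as matrix proteases and their inhibitors, with the difference between the groups already known, and the rise of Mmp10 from a low level was part of that choice. Of the 9 named genes, 8 matched a row among the 11866 listed genes, and Mmp14 was not analysed here. Because the choice used the same contrast, the values of the members are a description, and their p-values support nothing beyond it.

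The cells were HCC3-4, a liver tumour line derived from mice that carry a MYC transgene, so knockdown and control cells share that background. The KD group has 3 libraries from cells with stable expression of a hairpin RNA that targets Sf3b3 (shSf3b3), and the PLKO group has 3 from cells with the negative control vector pLKO.1-TRC. Sf3b3 encodes a subunit of the SF3b complex, which recognises the branch point of introns during splicing. No label names a further hairpin or a rescue, so lower Sf3b3 and other differences between the cell populations cannot be told apart. No label states that the libraries within a group are from separate cultures, so the p-values measure only how these libraries vary, and that variation may be technical.

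Poly(A)-captured RNA gave between 15140441 and 17566101 reads on listed genes per library. As a share of the PLKO mean, Sf3b3 ranged over 84.2% to 109% in PLKO libraries and over 35.6% to 51.8% in KD libraries, and KD 3 kept the most among the latter. Its log2 difference was -1.26 (SE 0.23, limma adjusted p = 0.037). The counts of genes called and the log2 differences of the named genes were also computed without both libraries numbered 3. Of 7 hepatocyte markers only Afp matched a row, at 0.302 to 0.467 FPKM (fragments per kilobase of gene, scaled to library size) in PLKO and 0.814 to 1.98 FPKM in KD. Of 10 stromal markers 6 matched, led by Pdgfrb and Col3a1, with summed levels of 103 to 158 FPKM in PLKO and 53.1 to 76.5 FPKM in KD. Of the 4 of them tested, 3 were lower in KD and 1, Pdgfra, was higher (mean 9.99 FPKM in PLKO, 11.9 FPKM in KD, with overlap). Of 7 macrophage markers Cd68 and Cd14 matched (summed 14.9 to 53.1 FPKM in PLKO, 53.3 to 113 in KD), and the defining genes Adgre1, Csf1r and Ptprc were not analysed here. Cd14 overlapped between the groups and Cd68 did not. Vwf was the 1 endothelial marker of 6 with a row, at 0.0800 to 0.316 FPKM over all libraries, and 3 of 5 bile duct markers had summed levels of 109 to 237 FPKM in PLKO and 134 to 253 FPKM in KD.

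Metalloproteinases are made as inactive precursors, and a conserved cysteine in the propeptide blocks the zinc of the active site until it is removed. MMP10 (stromelysin-2) and MMP3 (stromelysin-1) cleave proteoglycans, fibronectin and laminins and can activate other precursors, MMP13 is a collagenase of fibrillar collagen, and MMP2 (gelatinase A) cleaves denatured and basement membrane collagen. The TIMPs bind the active site of metalloproteinases as tight inhibitors. Urokinase (Plau), held at the cell surface by its receptor (Plaur), and tissue plasminogen activator (Plat) convert plasminogen to plasmin, which degrades fibrin and activates some pro-metalloproteinases.

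Mmp10 was higher in KD, Timp1 was lower, and the urokinase gene Plau was higher, each with no overlap between the groups. Mmp10 was the 1 member of 7 tested that passed the test over all genes, limma with Benjamini-Hochberg adjusted p under 0.05. Its PLKO mean of 0.754 FPKM lay under the minimum of 1 FPKM for testing. Mmp10 therefore entered the test only through its KD libraries, the group where it is high. In the fit without that minimum its limma adjusted p was 0.045. Of the 10770 tested genes 1.12% were called higher and 1.79% lower (2.92% in either direction), and nothing is read from the members' count beside these shares, because the members were chosen on this contrast. At an unadjusted p under 0.05 in limma, 1261 of the 10770 tested genes were higher in KD and 1716 lower. The median log2 difference (KD minus PLKO) of the 7 tested members was 0.24, against -0.04 over all tested genes. Groups did not overlap for 2 higher members and 1 lower member, where 32.1% of all tested genes did not overlap, 13.4% higher and 18.8% lower. With the replicate number as a block, 3 members were called higher (Mmp10, Plau, Plaur) and 2 lower (Timp1, Timp3), where the same fit called 19.3% of all genes, 8.19% higher and 11.1% lower.

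**Figure D1:**
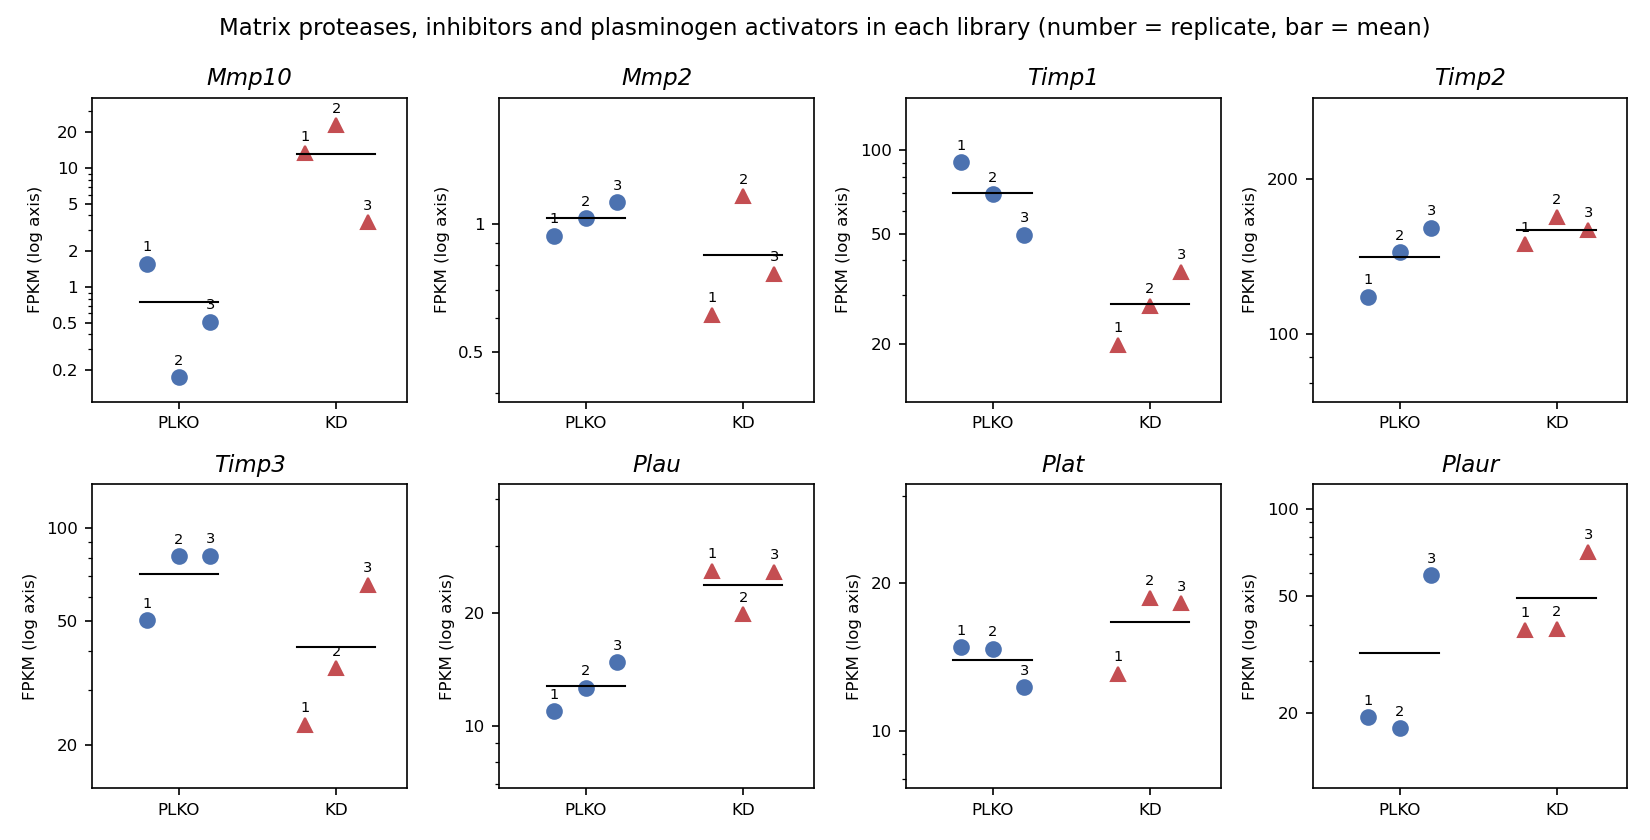
FPKM of the 8 listed members in each library on log axes that differ between panels, with PLKO as circles, KD as triangles, the replicate number beside each point and the group mean as a bar. Mmp10, Timp1 and Plau are the panels in which the groups do not overlap, and library 3 is the highest of both groups for Plaur.

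Mmp10 (ENSMUSG00000047562.3; GRCm38 chromosome 9, 7502352 to 7510240, plus strand) had 1.58, 0.174 and 0.510 FPKM in PLKO 1, 2 and 3 and 13.4, 22.9 and 3.51 FPKM in KD 1, 2 and 3. Every KD library lay above every PLKO library, KD 3 was the lowest of its group. These values rest on 47, 3 and 12 reads in PLKO and on 354, 622 and 104 reads in KD. The mean was 0.754 ± 0.732 FPKM (SD, n = 3) in PLKO, against 13.2 ± 9.68 FPKM in KD, which is a log2 difference of 4.30 (SE 0.86). Summed over libraries, 1080 reads in KD against 62 in PLKO gave a ratio per library size of 18.1, with an exact 95% binomial interval from 14.0 to 23.7 that covers counting error only. Against the PLKO library of the same number, KD held 8.48 times, 131 times and 6.88 times as much Mmp10, and the ratio of 131 rests on the 3 reads of PLKO 2.

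The limma adjusted p of Mmp10 was 0.043. Without PLKO 1, PLKO 2, KD 1 or KD 2 it was 0.12, 0.13, 0.17 and 0.19, with log2 differences from 3.51 to 5.10, and with limma voom on reads recovered from the deposited values it was 0.061 at a log2 difference of 4.52. Without both libraries numbered 3 the log2 difference was 5.06 (limma adjusted p = 0.0049). The direction was the same in all 15 alternatives run, of which 10 called Mmp10.

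Mmp10 lies in a cluster of metalloproteinase genes. Within 250 kb on either side of it, 10 Mmp genes lie between 7272514 and 7699585 on chromosome 9, and 3 of them, Mmp13, Mmp3 and Mmp10, matched a row. Mmp13 (7272514 to 7283331) and Mmp3 (7445822 to 7455975) lie before Mmp10 on the same strand. This window was chosen after the values of these genes had been seen. Mmp3 had 30.1, 19.1 and 6.34 FPKM in PLKO and 97.1, 195 and 24.7 FPKM in KD. Mmp13 had 14.8, 6.94 and 3.21 FPKM in PLKO and 21.4, 55.4 and 12.5 FPKM in KD. For all 3 genes KD 2 was the highest library and KD 3 the lowest KD library, and for Mmp3 and Mmp13 the groups overlapped because KD 3 lay below PLKO 1. In library pairs of the same number each gene was higher in KD, by 3.23, 10.2 and 3.90 times for Mmp3 and by 1.45, 7.99 and 3.88 times for Mmp13. The log2 difference was 2.33 (SE 0.75) for Mmp3 and 1.83 (SE 0.62) for Mmp13, and neither passed the test (limma adjusted p = 0.094 and 0.11). The replicate block called both (limma adjusted p = 0.0013 and 0.0067). With 1 library left out at a time, Mmp3 ran from 1.67 (without KD 2, limma adjusted p = 0.29) to 3.16 (without KD 3, 0.021). Mmp13 ran from 1.24 (without KD 2, limma adjusted p = 0.32) to 2.38 (without PLKO 1, 0.14), and it was called without KD 3 (2.32, 0.047). The Mmp10 level stood at 0.00911 to 0.0804 of the Mmp3 level in PLKO libraries and at 0.117 to 0.142 in KD libraries, without overlap. Because Mmp10 was picked for its rise, this separation is a description only. In PLKO the ratio rests on 3 to 47 Mmp10 reads per library. The macrophage marker sum was higher and the stromal marker sum lower in KD in every library, although Cd14 and Pdgfra overlapped between the groups. The part of these markers in the differences was not tested.

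**Figure D2:**
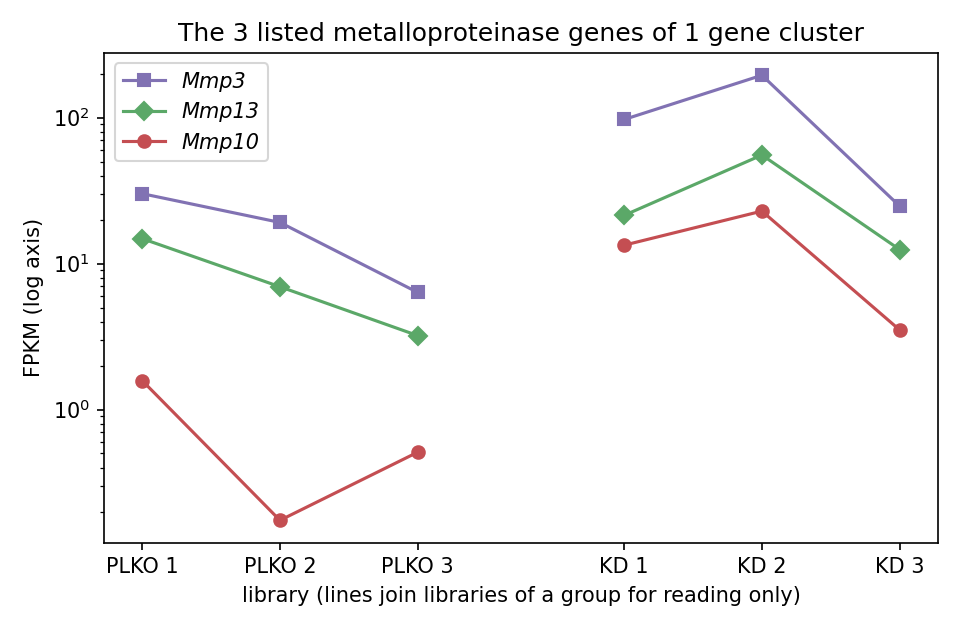
FPKM (log axis) of Mmp3, Mmp13 and Mmp10 in each library, with lines that join the libraries of a group for reading only. Mmp10 runs from 0.174 to 1.58 FPKM in PLKO libraries, against 3.51 to 22.9 FPKM in KD, and all 3 genes are highest in KD 2.

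The start regions of these genes are shown because all 3 hold the AP-1 motif, letters by which AP-1 dimers of FOS and JUN proteins bind DNA, together with the letters TATAAA. RefSeq promoters on GRCm38.p6 (250 bases before to 50 after the annotated start) were found for 5 of the 8 listed members and for Mmp3 and Mmp13, which were added after their values had been seen. They were searched for TGAGTCA (AP-1) and AGGAAG (the PEA3 motif of ETS factors) on both strands and for TATAAA on the gene's strand. Capitals mark the matches, which do not overlap each other, and the promoters of Mmp10 (chr9:7502092-7502391), Mmp3 (chr9:7445572-7445871) and Mmp13 (chr9:7272264-7272563), all on the plus strand, read 5′ to 3′:
Mmp10: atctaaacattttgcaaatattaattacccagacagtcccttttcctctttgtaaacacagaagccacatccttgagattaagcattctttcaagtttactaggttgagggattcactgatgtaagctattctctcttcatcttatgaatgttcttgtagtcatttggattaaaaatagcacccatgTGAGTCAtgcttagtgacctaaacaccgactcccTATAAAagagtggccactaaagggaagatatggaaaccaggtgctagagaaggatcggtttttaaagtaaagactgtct
Mmp3: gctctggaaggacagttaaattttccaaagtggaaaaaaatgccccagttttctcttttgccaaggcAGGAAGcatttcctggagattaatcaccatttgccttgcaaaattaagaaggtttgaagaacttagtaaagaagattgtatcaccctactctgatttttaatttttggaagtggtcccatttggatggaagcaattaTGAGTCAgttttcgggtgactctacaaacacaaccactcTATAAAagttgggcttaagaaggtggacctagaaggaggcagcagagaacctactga
Mmp13: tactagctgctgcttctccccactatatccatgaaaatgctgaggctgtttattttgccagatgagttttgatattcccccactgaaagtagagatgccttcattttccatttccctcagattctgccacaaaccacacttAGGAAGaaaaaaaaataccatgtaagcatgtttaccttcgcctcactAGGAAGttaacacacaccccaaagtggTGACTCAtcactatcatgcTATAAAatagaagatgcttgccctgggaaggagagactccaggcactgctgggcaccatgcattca
Counted from the RefSeq start, the AP-1 match covers bases -63 to -57 in Mmp10, -46 to -40 in Mmp3 and -35 to -29 in Mmp13, where it is on the opposite strand. The TATA match covers -29 to -24 in Mmp10, -7 to -2 in Mmp3 and -16 to -11 in Mmp13. All these positions depend on the RefSeq starts, which were not checked here. Among all 32851 RefSeq promoters of this length, 5.20% hold the AP-1 letters, 8.32% the TATA letters and 0.624% both. The 3 promoters are shown for holding both, so nothing is read from their matches beside these shares. Mmp3 has 1 PEA3 match and Mmp13 has 2, which 35.4% of all promoters hold at least once, and Mmp10 has none in this window. A match describes the letters and not binding.

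Mmp2 (chromosome 8, 92827291 to 92853420) had 0.937, 1.03 and 1.12 FPKM in PLKO and 0.611, 1.16 and 0.762 FPKM in KD, on 30 to 60 reads per library. The groups overlapped, since KD 2 was the highest library of all. Its mean over all libraries was under the minimum of 1 FPKM, so it was not among the tested genes, and in the fit without that minimum its limma adjusted p was 0.59 at a log2 difference of -0.33.

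Beyond the members, 20 further metalloproteinase genes had been listed, of which 9 matched a row and 6 were tested. None of the 6 was called by limma (2 higher and 1 lower at an unadjusted p under 0.05, 0 called by voom), and their median log2 difference was 0.34. With the block, Mmp3 and Mmp13 were called higher and Mmp28 lower, where 8.19% of all tested genes were called higher and 11.1% lower. Mmp28 (epilysin) had 6.02, 12.5 and 3.91 FPKM in PLKO and 1.77, 1.86 and 2.66 FPKM in KD, with no overlap, and a log2 difference of -1.69 (SE 0.41, limma adjusted p = 0.059, and 0.0085 with the replicate block). It was called without PLKO 3 (-2.07, limma adjusted p = 0.021) and without KD 3 (-1.88, 0.035). So the metalloproteinase values did not all lie on one side: 4 of these 6 genes had higher and 2 had lower means in KD.

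Among the inhibitors, Timp1 and Timp3 had lower means in KD and Timp2 was nearly level. Timp1 (ENSMUSG00000001131.11; chromosome X, 20870166 to 20874735, plus strand) encodes a soluble inhibitor that many cells induce with growth factors and cytokines. It had 90.3, 69.1 and 49.5 FPKM in PLKO and 19.9, 27.5 and 36.4 FPKM in KD. The groups did not overlap, and the highest KD library, KD 3, came closest to the lowest PLKO library, PLKO 3. The mean was 69.6 ± 20.4 FPKM in PLKO, against 27.9 ± 8.29 FPKM in KD (SD, n = 3), for a log2 difference of -1.32 (SE 0.30; 95% interval -1.99 to -0.65). The limma adjusted p was 0.0503, just above the threshold of 0.05, and 0.011 with the replicate block. Timp1 was called in 7 of 15 alternatives, the log2 difference was negative in all 15, and it ran from -1.76 without both libraries numbered 3 (adjusted p = 0.0044) to -1.09 without KD 1 (0.18). The gene lies inside the Syn1 locus on the opposite strand and shares no annotated exon base with it.

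Timp2 (chromosome 11, 118301069 to 118355740, minus strand), which inhibits MMP2 and also takes part in its activation at the cell surface, was the most abundant member. It had 118, 144 and 160 FPKM in PLKO and 149, 169 and 159 FPKM in KD. The groups overlapped, and the log2 difference was 0.18 with a 95% interval from -0.26 to 0.63 (limma adjusted p = 0.57).

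Timp3 (chromosome 10, 86300372 to 86349506, plus strand) encodes the inhibitor that stays bound to the matrix and also blocks ADAM proteases. It had 50.4, 81.2 and 81.6 FPKM in PLKO and 23.2, 35.4 and 65.8 FPKM in KD. KD 1 and KD 2 lay below all PLKO libraries and KD 3 above PLKO 1, so the groups overlapped. The log2 difference was -0.88 (SE 0.37, limma adjusted p = 0.17), and with the replicate block the gene was called (limma adjusted p = 0.025). KD over PLKO ratios of Timp3 by library number were 0.461, 0.435 and 0.806. Without KD 3 the log2 difference was -1.28 (limma adjusted p = 0.032) and without KD 1 it was -0.52 (0.46). Timp3 shares 1733 exonic bases with Syn3 on the opposite strand, and the strand setting of the counts is not given in the sources used here. Syn3 had 0.0390 to 0.108 FPKM in PLKO libraries and 0.200 to 0.210 FPKM in KD libraries, without overlap, on 6 to 41 reads per library. The effect of the shared bases on the Timp3 counts was not tested. Reck, a membrane-anchored inhibitor of metalloproteinases, was the other listed inhibitor with a row, with 4.10 ± 1.87 FPKM in PLKO, against 2.32 ± 1.35 FPKM in KD (log2 difference -0.89, limma adjusted p = 0.24, and 0.047 with the replicate block).

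The shares of the TIMP transcripts did not overlap between the groups for Timp2 and Timp1. Timp2 made up 60.9% to 77.6% of the summed TIMP level in KD libraries, above its shares of 45.6%, 48.9% and 55.0% in PLKO 1, 2 and 3. Timp1 made up 34.9%, 23.5% and 17.0% in PLKO and 10.3%, 11.9% and 14.0% in KD. For both genes library 3 was the one nearest to the other group. The summed level of Mmp3, Mmp10 and Mmp13 was 0.180, 0.0892 and 0.0345 of the TIMP sum in PLKO and 0.686, 1.18 and 0.156 in KD, where KD 3 lay below PLKO 1. These ratios, chosen after the values had been seen, are of transcript levels per gene length and not of enzyme activity. The summed stromal markers, which include the matrix gene Col3a1, were also lower in every KD library, although Pdgfra had a higher mean in KD. The part of these markers in the TIMP values was not tested.

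**Figure D3:**
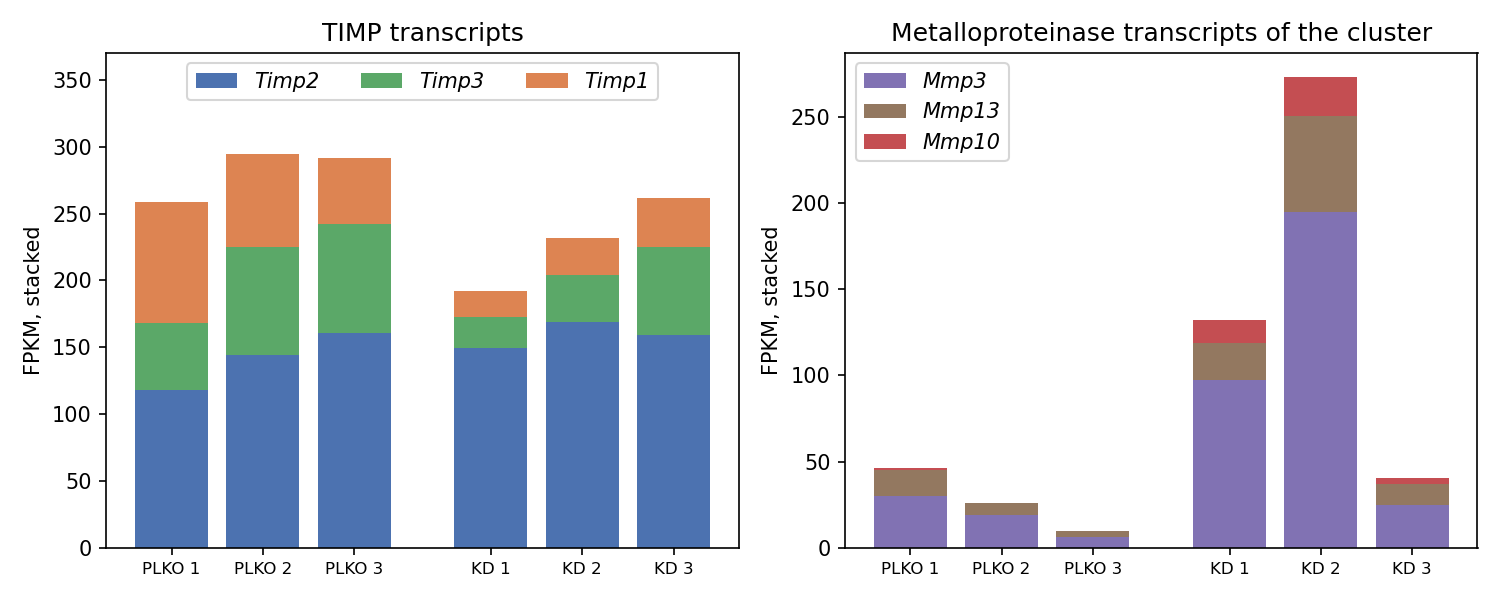
Stacked FPKM per library of Timp2, Timp3 and Timp1 (left) and of Mmp3, Mmp13 and Mmp10 (right), on axes that start at 0. The TIMP sum runs from 259 to 294 FPKM in PLKO libraries, against 192 to 261 FPKM in KD, while the metalloproteinase sum runs from 10.1 to 46.5 FPKM in PLKO libraries, against 40.7 to 273 FPKM in KD.

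The RefSeq promoter of Timp1 (chrX:20869916-20870215, plus strand) is shown as the counterpart of the Mmp10 promoter, for the member whose level was lower in KD without overlap. Capitals mark PEA3 matches, and neither the AP-1 nor the TATA letters occur in this window:
Timp1: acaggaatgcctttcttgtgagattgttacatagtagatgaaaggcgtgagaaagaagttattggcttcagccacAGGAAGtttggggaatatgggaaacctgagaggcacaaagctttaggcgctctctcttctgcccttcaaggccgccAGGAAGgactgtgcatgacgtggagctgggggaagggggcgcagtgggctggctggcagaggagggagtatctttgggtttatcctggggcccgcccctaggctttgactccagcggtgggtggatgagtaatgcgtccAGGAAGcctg
The 3 PEA3 matches of Timp1 cover bases -175 to -170, -99 to -94 and 41 to 46 from the RefSeq start. Timp3 has 1 such match, at -204 to -199, and Timp2 has no match to any of the 3 motifs. Only the exact letters were searched. The Timp1 window holds tgagtaa, which differs from the AP-1 letters by 1 base, so the lack of a match does not show that an AP-1 site is absent.

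Of the plasminogen activators, Plau was higher in KD than in PLKO in every library and Plat was not. Plau (ENSMUSG00000021822.3; chromosome 14, 20836660 to 20843385, plus strand) had 10.9, 12.6 and 14.8 FPKM in PLKO and 25.8, 19.8 and 25.7 FPKM in KD. The groups did not overlap, and all KD libraries lay above the highest PLKO library, PLKO 3. The mean was 12.8 ± 1.92 FPKM in PLKO, against 23.8 ± 3.44 FPKM in KD (SD, n = 3), for a log2 difference of 0.89 (SE 0.22; 95% interval 0.40 to 1.38). The limma adjusted p was 0.058, and 0.017 with the replicate block. Over 15 alternatives the log2 difference ran from 0.79 to 1.02, and 5 of them called the gene.

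Plat (chromosome 8, 22757727 to 22782844, plus strand) had 14.8, 14.7 and 12.3 FPKM in PLKO and 13.1, 18.6 and 18.2 FPKM in KD. The groups overlapped, and the log2 difference was 0.24 with a 95% interval from -0.26 to 0.74 (limma adjusted p = 0.50). Plau and Plat, at like levels in PLKO, stood in a ratio of 0.739, 0.860 and 1.20 there and of 1.97, 1.06 and 1.41 in KD, and these ratios overlapped.

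Plaur (chromosome 7, 24462484 to 24475968, plus strand), the urokinase receptor, had 19.3, 17.7 and 59.0 FPKM in PLKO and 38.5, 38.7 and 71.2 FPKM in KD. Library 3 was the highest of both groups, and PLKO 3 lay above KD 1 and KD 2, so the groups overlapped. KD exceeded PLKO in each pair of the same number, by 2.19 times in pair 2 and 1.21 times in pair 3. The log2 difference was 0.80 (SE 0.46, limma adjusted p = 0.28), and with the replicate block Plaur was called (SE 0.23, limma adjusted p = 0.034). With 1 library left out at a time the log2 difference ran from 0.49 (without PLKO 2, limma adjusted p = 0.57) to 1.36 (without PLKO 3, 0.037), and without PLKO 1 or KD 3 it was 0.55 and 0.50 (0.56 and 0.49). Its RefSeq promoter (chr7:24462233-24462532, plus strand) is shown because it is the other member promoter with an AP-1 match, here on the opposite strand at bases -69 to -63, with PEA3 matches at -130 to -125 and 17 to 22:
Plaur: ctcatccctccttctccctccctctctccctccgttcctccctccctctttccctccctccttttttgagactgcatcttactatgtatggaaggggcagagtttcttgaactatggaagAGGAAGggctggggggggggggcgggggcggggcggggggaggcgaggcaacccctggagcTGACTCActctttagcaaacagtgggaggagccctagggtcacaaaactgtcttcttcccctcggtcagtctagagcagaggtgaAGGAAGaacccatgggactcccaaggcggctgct

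Of 12 further genes listed for the plasminogen system, 8 matched a row and 7 were tested. None was called by limma (1 higher and 0 lower at an unadjusted p under 0.05, 0 by voom), and the median log2 difference was 0.05. Serpine2, an inhibitor of urokinase, had a log2 difference of 0.40 (limma adjusted p = 0.39). The most abundant genes of the list, S100a10, whose complex with annexin A2 binds plasminogen, and the glycolytic enzyme and plasminogen receptor Eno1, had 433 ± 26.7 and 376 ± 30.8 FPKM in PLKO, with log2 differences of -0.13 and 0.11 (limma adjusted p = 0.72 and 0.75).

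**Figure D4:**
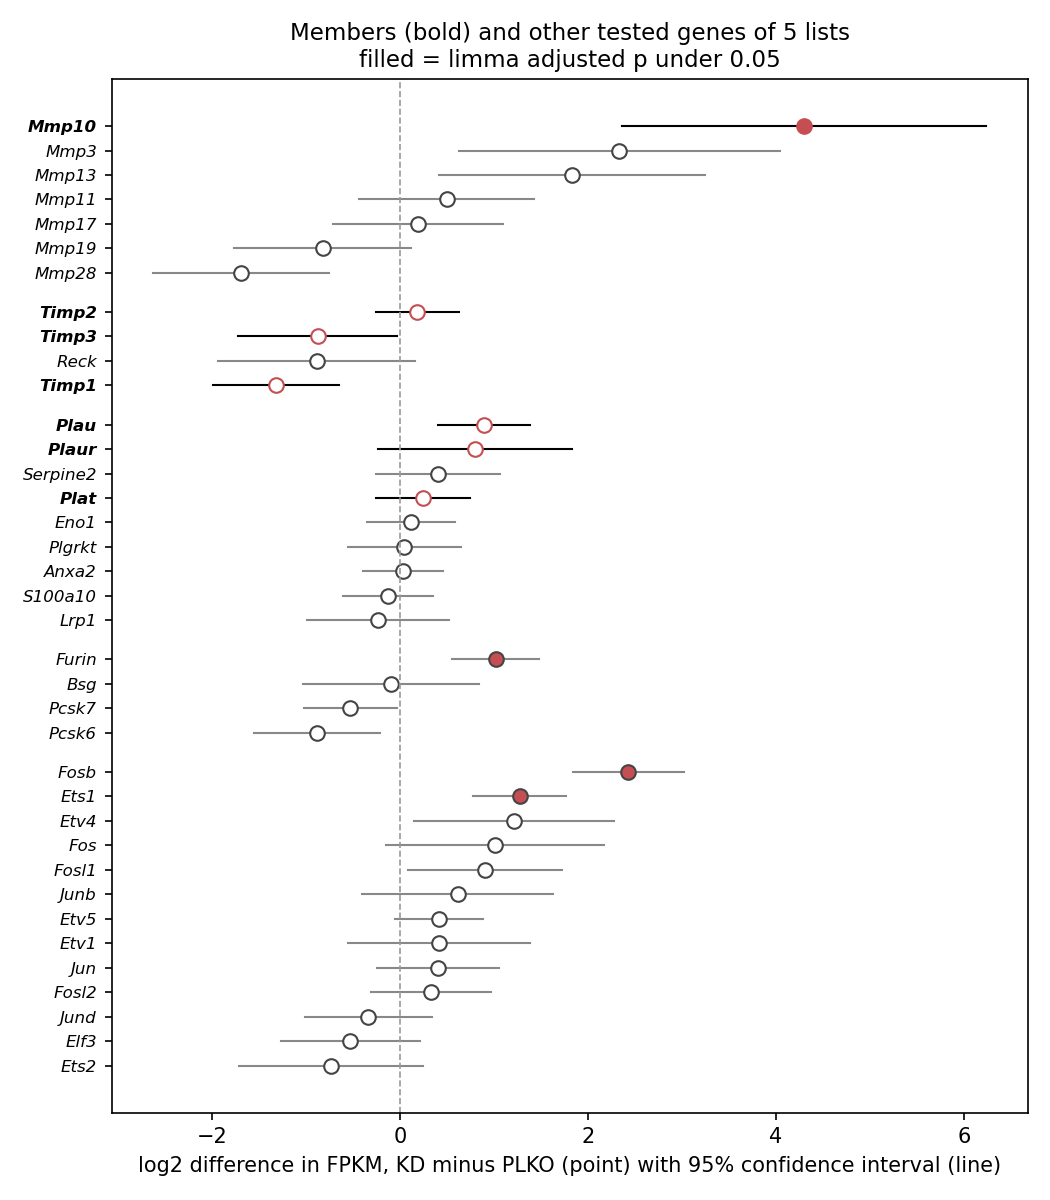
Log2 difference in FPKM (KD minus PLKO) with its 95% confidence interval for the tested genes of the metalloproteinase, inhibitor, plasminogen, precursor activation and AP-1 and ETS lists, from top to bottom, apart from 1 gene that is not reported here. Filled points passed limma's adjusted p under 0.05 over all 10770 genes: Mmp10, Furin, Fosb and Ets1.

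In order of level per gene length, PLKO cells held Timp2 (141 FPKM), Timp3 (71.1), Timp1 (69.6), Plaur (32.0), Plat (13.9), Plau (12.8), Mmp2 (1.03) and Mmp10 (0.754). In KD cells the order was Timp2 (159 FPKM), Plaur (49.5), Timp3 (41.4), Timp1 (27.9), Plau (23.8), Plat (16.6), Mmp10 (13.2) and Mmp2 (0.844). In PLKO the library ranges of neighbours overlapped for Timp3 and Timp1, Timp1 and Plaur, Plat and Plau, and Mmp2 and Mmp10. In KD they overlapped for Plaur and Timp3, Timp3 and Timp1, Timp1 and Plau, and Plat and Mmp10. By mean, Mmp10 ranked below Mmp2 in PLKO and between Plat and Mmp2 in KD. Its KD libraries spread from 3.51 to 22.9 FPKM, beyond the Plat range of 13.1 to 18.6 FPKM on both sides.

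Furin, the proprotein convertase that activates membrane-type metalloproteinases such as MMP14, was the 1 gene called among 4 tested genes of precursor activation. Over all tested genes limma called 1.12% higher and 1.79% lower. Furin rose from 14.5 ± 1.12 FPKM (PLKO) to 29.6 ± 4.66 FPKM in KD (SD, n = 3), with 13.6, 15.8 and 14.2 FPKM in PLKO and 32.4, 32.2 and 24.2 FPKM in KD. The log2 difference was 1.02 (SE 0.21, limma adjusted p = 0.044), and the adjusted p was up to 0.20 over the alternatives, of which 11 of 15 called it. It lost the call without PLKO 1, PLKO 2, KD 1 or KD 2, as every gene did. The related convertase Pcsk6 had a log2 difference of -0.89 (limma adjusted p = 0.10, and 0.027 with the replicate block), and the glycoprotein Bsg, which induces metalloproteinases in neighbouring cells, of -0.09 with a 95% interval from -1.03 to 0.84. The median of the 4 genes was -0.31, with 1 higher and 3 lower in KD. Of the latter, 2 did not overlap between the groups, where 18.8% of all tested genes were lower without overlap.

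The ADAM proteases, membrane-bound sheddases, had 4 of 5 tested means lower in KD, with a median log2 difference of -0.53. None was called by limma (0 higher and 3 lower at an unadjusted p under 0.05, 0 by voom). Adam10 had 43.1 ± 7.40 FPKM in PLKO, against 25.3 ± 4.68 FPKM in KD (log2 difference -0.77, limma adjusted p = 0.076), and Adam15 had 23.6 ± 3.91 and 13.4 ± 4.83 FPKM (-0.87, adjusted p = 0.10). Neither overlapped between the groups, and the replicate block called both (limma adjusted p = 0.025 and 0.020), as did the fit without KD 3 (0.032 and 0.028). Of all tested genes, 18.8% were lower without overlap and the block called 11.1% lower. Adam9 had a log2 difference of -0.31 (limma adjusted p = 0.40). Of 6 tested ADAMTS proteases none was called by limma (0 higher and 1 lower at an unadjusted p under 0.05, 0 by voom), and the block called 1, Adamts14, at a log2 difference of -1.09 (limma adjusted p = 0.12, 0.027 with the replicate block, and 0.023 without KD 3). Adamts12, Adamts4 and Adamts7 had log2 differences of -1.26, -0.16 and 0.53. Of 10 pericellular serine proteases and their inhibitors only Htra1 had a row, with a log2 difference of -0.95 (limma adjusted p = 0.28). Over all 30 tested protease and inhibitor genes outside the members, 1 was called higher and 0 lower (4 and 7 at an unadjusted p under 0.05, 1 and 0 by voom), and the median was -0.14. Among all 10770 tested genes, 1261 were higher and 1716 lower at an unadjusted p under 0.05 in limma.

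Transcription factors of the AP-1 and ETS families, whose motifs were searched above, all matched a row, and 2 of 13 were called, both higher, with a median log2 difference of 0.41. Over all tested genes 1.12% were called higher and the median was -0.04, and the replicate block called 8.19% higher. The replicate block called 5, all higher: Ets1, Fosb, Fosl1 and, named after their values were seen, Fos and Etv4 (limma adjusted p = 0.016 and 0.029). Ets1 rose from 15.7 ± 1.99 FPKM (PLKO) to 38.3 ± 6.92 FPKM in KD (SD, n = 3), for a log2 difference of 1.28 (SE 0.22, limma adjusted p = 0.034). Fosb rose to 8.10 ± 1.47 FPKM in KD, with 1.33, 1.42 and 1.75 FPKM in PLKO (log2 difference 2.43, SE 0.26, adjusted p = 0.014). Both calls were lost without PLKO 1, PLKO 2, KD 1 or KD 2 (limma adjusted p up to 0.19 and 0.14). The most abundant by the mean over both groups were Junb, with 141 ± 92.4 FPKM in PLKO, against 202 ± 95.1 FPKM in KD (log2 difference 0.61, limma adjusted p = 0.40), and Fosl1, with 62.1 ± 32.8 and 110 ± 36.3 FPKM (0.90, adjusted p = 0.15, and 0.016 with the replicate block). Without PLKO 3 Fosl1 was called at 1.31 (limma adjusted p = 0.034). Fosl1, Junb and Fosb were highest in library 3 of each group, as was Plaur. The other factors did not all follow, since Ets1 was lowest of the KD libraries in KD 3 (30.7 FPKM). Jun, also named after its values were seen, was lowest of the PLKO libraries in PLKO 3 (32.8 FPKM). Mmp3 and Mmp13 were lowest in library 3 of each group, and Mmp10 was lowest in PLKO 2 and KD 3. A link between these patterns was not tested.

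The 5 tested genes whose centred log2 values over the 6 libraries came closest to those of Mmp10 were Trim69, Colec11, Mir3091, Padi2 and 1700001P01Rik. Their root mean square difference from Mmp10 was 0.88, 0.89, 0.91, 0.95 and 1.00 on the log2 scale. Mmp3 and Mmp13 ranked 25 and 40 by this measure, at 1.38 and 1.51, out of 10769 genes. The measure is not scaled, so the size of the rise, for which Mmp10 was picked, enters it along with the pattern over libraries. Shared regulation was not tested. Trim69, a tripartite motif protein, had 0.473, 0.317 and 0.365 FPKM in PLKO and 7.84, 6.82 and 2.39 FPKM in KD. Padi2, a peptidyl arginine deiminase, had 0.387, 0.108 and 0.0493 FPKM in PLKO and 3.55, 2.56 and 0.388 FPKM in KD, where KD 3 was level with PLKO 1. These genes have few reads in PLKO (3 to 42 over 3 libraries), where the prior added before the logarithm compresses differences.

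**Figure D5:**
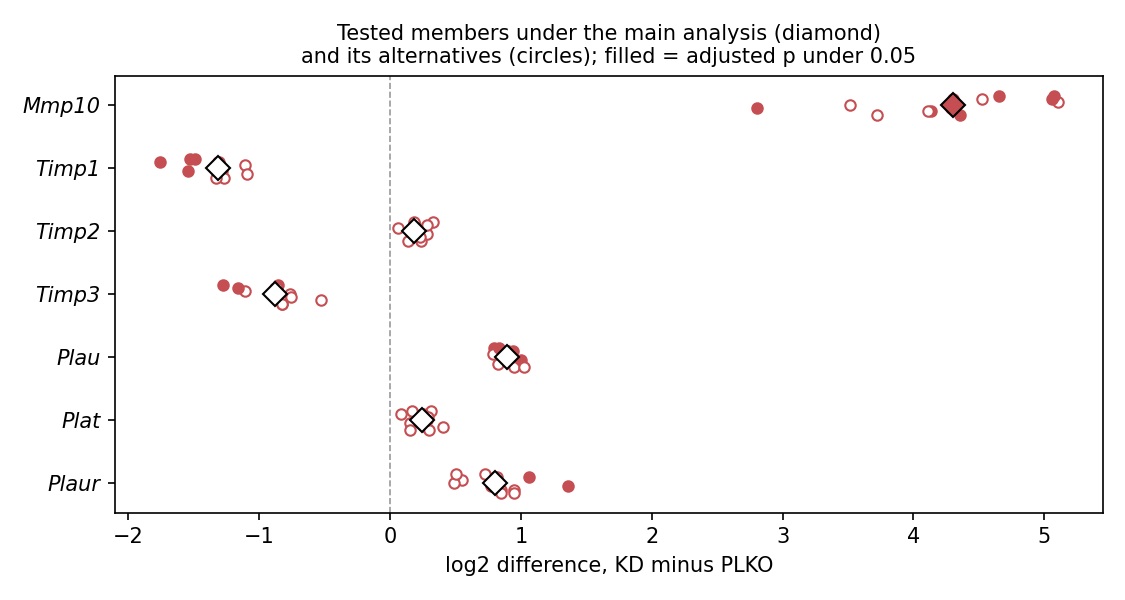
Log2 difference (KD minus PLKO) of the 7 tested members in the main analysis (diamonds) and 15 alternatives (circles), filled where the adjusted p was under 0.05. No tested member changes sign: Mmp10 runs from 2.80 to 5.10, Timp1 from -1.76 to -1.09 and Plau from 0.79 to 1.02.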

How the data were processed

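The authors deposited 1 table of log2 FPKM for 11866 genes in 6 poly(A) RNA libraries. That the values are log2, with a prior averaging 2 reads added before the logarithm, was read from the values, in which 21 genes share exact floors. The submitters' processing notes name GRCm38 and FastQC 0.11.7. Aligner, counter, strand setting and gene filter: not given in the sources used here. Whole reads were recovered from the steps above the floors with GENCODE M21 exonic lengths for 92.5% of genes (tolerance 0.01 reads) and with scanned lengths for the other 892, and served for depth and 1 alternative. Printed FPKM undo the logarithm of the deposited log2 values.

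The test was limma 3.58.1 (R 4.3.3) (trend option), run on the authors' log2 values for the 10770 genes with a mean of at least 1 FPKM, with the group alone (4 residual degrees of freedom) and Benjamini-Hochberg adjustment over all tested genes. The prior understates log2 differences of genes with few reads. Fits were tested on simulated data. Members and lists were chosen with earlier results of these data known. The genes named outside the members are, in each list, those called, the 2 most abundant and the 2 with the lowest p, plus the 5 nearest to Mmp10 and Sf3b3 and, chosen after their values were seen, marker and overlapping genes. The values of 1 listed gene are not reported here, and the counts over its list include it.

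Equal replicate numbers were checked for pairing by correlating deviations from group means over 10770 genes: 0.18, 0.29 and 0.50 for numbers 1, 2 and 3, all above the limit of 0.1, and libraries of equal number were taken as pairs in the replicate block, which is an alternative; the fit with the group alone gave the main values. The pairing comes from the data, not from a label. PLKO 1 correlated more with KD 2 (0.27) than with KD 1 (0.18), and PLKO 2 as much with KD 1 (0.30) as with KD 2 (0.29). So for libraries 1 and 2 the values do not favour equal numbers. The block calls and the ratios of libraries of the same number depend on that choice. Alternatives were the replicate block, no minimum or 5 FPKM, log2(FPKM + 1), quantile normalization, median centring, array weights, voom, and leaving out libraries. Array weights used limma's gene-by-gene algorithm, chosen after the default algorithm was seen not to converge on these values; both counts are in the closing section.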

Additional observations from a re-analysis of the deposited data

How the results depend on the processing

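The log2 difference of Sf3b3 ran from -1.43 to -1.15 over all 15 alternatives. It was called in 11 and lost the call without PLKO 1, PLKO 2, KD 1 or KD 2, at log2 differences of -1.38, -1.21, -1.21 and -1.15 (limma adjusted p up to 0.19). No gene was called by limma in those 4 fits (2217, 2315, 1818 and 1793 genes at an unadjusted p under 0.05). Over the leave-one-out fits the count of genes called ran from 0 to 733 higher and from 0 to 1011 lower, of tested members from 0 to 3 higher and from 0 to 2 lower, and of other listed genes of the system from 0 to 5 in each direction. Without PLKO 3 and without KD 3 the counts were 353 and 733 higher and 448 and 1011 lower. The cause of this dependence was not tested.

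The main counts were 121 genes higher and 193 lower, 1 member higher and 0 lower (2 lower at an unadjusted p under 0.05), and 3 other listed genes higher and 0 lower (7 lower at an unadjusted p under 0.05). With the replicate block they were 882 and 1198, 3 and 2, and 9 and 6. Without both libraries numbered 3 they were 1286 and 1723, 3 and 2, and 9 and 10. With array weights they were 1655 and 1944, 2 and 2, and 9 and 10; this used limma's gene-by-gene algorithm, chosen after seeing the data because the default algorithm stopped without convergence, and the default called 2904 genes higher and 3126 lower. With voom 96 genes were higher and 124 lower, with 0 members called (2 higher and 2 lower at an unadjusted p under 0.05). With a minimum of 5 FPKM 90 genes were higher, 1 member was called lower and 2 other listed genes were higher, and on the log2(FPKM + 1) scale 1 member was called lower. That member was Timp1 in both. Apart from the calls given beside the members and named genes, the block ended no call among the genes named. Signs turned for Adamts4 without PLKO 1 (leave-one-out range -0.52 to 0.35), for Bsg without PLKO 3 (0.089) and KD 1 (range -0.56 to 0.36), and for S100a10 with array weights (0.023) and without KD 1 (range -0.25 to 0.032). None of these genes was called in those fits. In KD minus PLKO the median of tested genes shifted by -0.05 on the log2 scale.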
